A study of Mus musculus with 4 samples.

Results

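A table of transcript isoforms in the mouse retina, counted separately in 6 classes of cells, was searched for isoforms that had no read at all in rods. Isoforms were chosen by their Rod count and their counts elsewhere: one was taken when its Rod count was 0 and its counts summed over the amacrine, bipolar, cone, Müller glia and ganglion cell columns came to 10 or more. There were 6013 such isoforms among the 44325 of the table, or 18.1% of the 33156 isoforms with 10 or more counts outside rods (exact 95% interval 17.7% to 18.6%). The other 27143 isoforms of the 33156 had rod reads and serve as the comparison. The Rod count chose the members, so every value below is a description and none is tested.

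The animals were male C57BL6/J mice, wild type and of an inbred strain. Papain was used to dissociate their retinas, and 4 single-cell libraries were read as full-length cDNA on a nanopore instrument. Of the 4 libraries, 2 had no enrichment, 1 of them from postnatal day 40 and the other without an age in the labels. The third was labelled CD73 enrichment, from postnatal week 8, and the fourth CD90.2 enrichment, from postnatal month 4. CD73 marks photoreceptors and CD90.2 marks neurons, ganglion cells among them; the protocol describes magnetic depletion of CD73-positive cells and magnetic selection of CD90.2-positive cells, while the series design names flow sorting. The class columns carry no library, so each class is 1 pooled sample without replicates, the part of each library in a class was not tested, fewer cells with an RNA cannot be told apart from less RNA per cell, and intervals cover counting error only. The labels do not say whether reads were collapsed to molecules, so 1 molecule may have given several counts.

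Rods are the most numerous neurons of the mouse retina and carry dim-light vision. They use a narrow set of channels, end in a ribbon synapse and express many of their own splice forms. Amacrine cells are inhibitory interneurons of many subtypes, bipolar cells carry signals from photoreceptors to ganglion cells, cones serve daylight vision, Müller glia span the tissue and ganglion cells send their axons to the brain. A class can lack an isoform of a gene it does not read at all, or of a gene it reads on other isoforms, and the genes below are ordered by that distinction.

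Coding stretches that no rod-read isoform of the gene contained are printed first, since they show what separates such isoforms from those of rods in genes that rods do read. They were sought among 45 annotated isoforms with 50 or more counts, 0 of them in rods, from genes with 20 or more Rod counts. A stretch was kept when it was coding in GENCODE M21, 12 to 300 bases long and outside every exon of every rod-read model of its gene. There were 13 such stretches in 7 isoforms, and 7 stretches from 6 isoforms are given here, 5′ to 3′ on the coding strand of GRCm38, taken from the GENCODE M21 transcripts, with the start codon in capitals where the stretch holds it.

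Rgs9, exon 10 of 19, 30 bases, chr11:109250027-109250056, minus strand: aaacaaactgtcactgctgtcagaaaagag
Rgs9, coding part of exon 19 of 19, 148 bases, chr11:109225629-109225776, minus strand: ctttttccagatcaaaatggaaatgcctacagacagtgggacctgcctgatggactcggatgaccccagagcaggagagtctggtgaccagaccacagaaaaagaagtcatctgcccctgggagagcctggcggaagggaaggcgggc
Lgals9, exon 5 of 11, 93 bases, chr11:78969714-78969806, minus strand: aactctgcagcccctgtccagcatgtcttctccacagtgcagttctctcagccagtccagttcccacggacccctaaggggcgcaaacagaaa
Il1rap, exon 6 of 11, 72 bases, chr16:26695222-26695293, plus strand: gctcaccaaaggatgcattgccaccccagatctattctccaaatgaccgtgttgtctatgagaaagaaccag
Slc25a25, coding part of exon 1 of 10, 219 bases, chr2:32430529-32430747, minus strand: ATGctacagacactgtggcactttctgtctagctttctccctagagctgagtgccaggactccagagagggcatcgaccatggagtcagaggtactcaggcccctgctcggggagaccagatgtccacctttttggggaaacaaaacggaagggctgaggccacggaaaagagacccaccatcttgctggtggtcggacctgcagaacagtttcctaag
Gsn, coding part of exon 1 of 17, 138 bases, chr2:35282464-35282601, plus strand: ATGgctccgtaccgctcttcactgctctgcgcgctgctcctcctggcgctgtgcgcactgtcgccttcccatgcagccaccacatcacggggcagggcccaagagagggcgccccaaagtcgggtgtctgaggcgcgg
Car7, coding part of exon 1 of 7, 40 bases, chr8:104540886-104540925, plus strand: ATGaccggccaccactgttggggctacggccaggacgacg

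Rgs9 encodes the protein that speeds the end of the light response in photoreceptors, and a longer form of it is known from the brain. The isoform ENSMUST00000020920.9, whose coding part ends in the printed 148 bases, had 7 amacrine, 1 bipolar, 0 cone, 5 Müller glia, 55 ganglion cell and 0 rod counts. The ganglion cell column stood highest, at 15.7 CPM, the count scaled to a column total of 1000000 (exact Poisson interval 11.8 to 20.4). That is about 290 times the limit for rods, where 0 of 55437340 counts allows up to 3 counts, or 0.0541 CPM. This ratio and those to the rod limit below take the CPM as measured, without its interval. Rods had 277 counts of Rgs9, of which 225 lay on an unannotated isoform of 16 exons that ended upstream, at position 109234194 of the minus strand. In the ganglion cell column that rod isoform had 0 counts, and the 55 counts of the printed isoform were all of the gene's 55 (100%, exact interval 93.5% to 100%).

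Lgals9 encodes galectin-9, a sugar-binding protein whose linker between the sugar-binding domains is known in several lengths. The isoform with the printed 93-base exon had 86 amacrine counts, 7 bipolar counts and none in the other 4 classes. Its gene had 34 Rod counts, all on ENSMUST00000108268.9, an isoform of 10 exons without that exon, which also had 49 Müller glia and 34 amacrine counts. The 2 isoforms differ by a whole exon of a length divisible by 3, and the longer one held 71.7% of the amacrine counts of the gene (62.7% to 79.5%) and 0 of its 49 Müller glia counts.

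Il1rap encodes the accessory chain of the interleukin-1 receptor. The 11-exon isoform with the printed exon had 114 bipolar counts, 1 in Müller glia and 0 in the amacrine, cone, ganglion cell and rod columns. All 70 Rod counts of the gene lay on an unannotated 4-exon isoform that ended at 26681489, before the printed exon, and this shorter form also had 1177 of the 1291 bipolar counts. The long form was thus 8.83% of the gene in bipolar cells (7.34% to 10.5%). At its share in the other 5 classes together, the 70 rod counts would hold 5.69.

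Slc25a25, a mitochondrial carrier of adenine nucleotides and phosphate, is read from more than 1 start site. The isoform whose first coding stretch is printed above had 62 amacrine, 49 bipolar, 0 cone, 2 Müller glia and 1 ganglion cell counts, and began at 32430752. Rods had 2448 counts of the gene, 2066 of them on ENSMUST00000028160.14, which began further upstream, at 32451445. The same rod isoform had 14 amacrine and 17 bipolar counts, so the order of the 2 isoforms was opposite in amacrine cells and rods. Had rods used the printed isoform at its share in the other 5 classes together, 997 rod counts would have been on it.

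Gelsolin, encoded by Gsn, cuts actin filaments and is known in a cytoplasmic form and a secreted form that differ at their amino end. The isoform with the printed start had 32 amacrine, 1 bipolar, 23 Müller glia and 0 cone, ganglion cell and rod counts, with Müller glia highest at 3.75 CPM. Rods had 38 counts of Gsn, 37 of them on ENSMUST00000201185.3, which began at another first exon and also led in Müller glia with 107 counts against 23.

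Car7, a carbonic anhydrase of neurons, had 2 annotated isoforms with amacrine reads and none in any other class. ENSMUST00000056051.10 had 138 amacrine counts (2.86 CPM, 2.40 to 3.38) and ENSMUST00000162761.1 had 104. Rods had 311 counts of the gene, 248 of them on an unannotated unspliced isoform between 104534700 and 104536651, which had 186 amacrine and 44 bipolar counts too. That isoform ended before both annotated isoforms began, at 104540807 and 104541309. It therefore held none of their exons and none of the printed coding stretch. The rest of the 311 rod counts lay on other isoforms, which by the rule above also lacked the printed stretch. That stretch was the only one of Car7 to meet the rule. RefSeq lists a start of Car7 at the first base of each of the 3 isoforms. The 250 bases upstream of these starts are printed (RefSeq, GRCm38.p6, plus strand), because both isoforms that begin at the first 2 had amacrine reads alone, while amacrine cells and rods both read the one that begins at the third. Capitals mark the motif CANNTG, which reads the same on both strands.

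Car7, before ENSMUST00000056051.10, chr8:104540557-104540806: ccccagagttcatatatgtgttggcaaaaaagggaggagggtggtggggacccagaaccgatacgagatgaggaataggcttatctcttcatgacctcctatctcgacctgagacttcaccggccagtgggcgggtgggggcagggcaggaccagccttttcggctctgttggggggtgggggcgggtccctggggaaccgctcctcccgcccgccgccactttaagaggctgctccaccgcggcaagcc
Car7, before ENSMUST00000162761.1, chr8:104541059-104541308: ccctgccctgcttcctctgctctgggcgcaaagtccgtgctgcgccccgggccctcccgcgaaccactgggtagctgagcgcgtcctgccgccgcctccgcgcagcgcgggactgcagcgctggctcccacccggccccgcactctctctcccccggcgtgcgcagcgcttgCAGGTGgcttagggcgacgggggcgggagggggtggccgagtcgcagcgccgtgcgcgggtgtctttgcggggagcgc
Car7, before the leading rod isoform, chr8:104534450-104534699: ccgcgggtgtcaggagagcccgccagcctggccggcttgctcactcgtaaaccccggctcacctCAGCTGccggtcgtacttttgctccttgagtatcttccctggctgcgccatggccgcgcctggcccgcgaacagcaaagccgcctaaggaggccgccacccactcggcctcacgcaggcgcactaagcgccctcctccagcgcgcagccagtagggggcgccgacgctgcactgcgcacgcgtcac

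The window before ENSMUST00000056051.10 held 0 matches to CANNTG, and each of the other 2 held 1. Of all 32851 RefSeq start windows of this length, 66.2% held the motif. TAATCC, searched on both strands, was in none of the 3 windows and in 6.25% of all of them.

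The classes were unequally deep. Totals ran from 3509890 counts in ganglion cells through 6133094 in Müller glia, 7307134 in cones, 29010038 in bipolar cells and 48248340 in amacrine cells to 55437340 in the Rod column. The 35 markers read for the 6 classes, 5 for rods (Gnat1, Pde6b, Nrl, Cnga1 and Sag) and 6 for each other class, were all highest in their own column. The 6 amacrine markers summed to 686 CPM in the amacrine column and 13.2 CPM in the Rod column. Rods were thus not free of amacrine reads. The 5 rod markers, at 13490.5 CPM in rods, also reached 5503 CPM in cones. Müller glia held 987 CPM of them, bipolar cells 282, the amacrine column 85.8 and ganglion cells 0. The part of rod reads in the counts of the other classes was not tested. The Müller glia column also held the 4 pigment epithelium markers at 8805 CPM together, against 2.85 to 62.4 CPM in the other 5 columns. Microglia, pericyte, astrocyte and endothelial markers were highest there too, at 1609, 253, 111 and 28.9 CPM.

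Isoforms without rod reads were rare ones. Their median total over the other 5 classes was 20 counts, with quartiles of 14 and 30 and a maximum of 1598, against a median of 104 in isoforms with rod reads. A total of 10 counts over the depth of these 5 columns is 0.106 CPM, which corresponds to 5.88 counts in rods, and the median of 20 corresponds to 11.8. Of the 6013, 3187 had 20 or more counts, 650 had 50 or more, 205 had 100 or more and 6 had 500 or more. Together they held 182256 counts, or 0.193% of the counts outside rods. The share of isoforms with 0 rod counts was 42.6% at 10 to 19 counts, 31.1% at 20 to 49, 10.2% at 50 to 99, 2.87% at 100 to below 500 and 0.0850% (6 of 7056) at 500 or more.

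The edges of the rule were not sharp. A single Rod count was found for 1836 isoforms, with a median of 25 counts outside rods, and 1886 isoforms with 0 rod counts fell under the minimum. At 10 counts there were 337 isoforms without rod reads, 9.79% of them annotated, and at 9 counts, just outside, there were 389, 10.3% of them annotated. The same rule applied to another class took 21.1% of isoforms for bipolar, 26.0% for amacrine, 43.8% for cone, 45.8% for Müller glia and 68.9% for ganglion cells. Rods, the deepest column, gave the lowest share of the 6, but the amacrine column, deeper than the bipolar one, gave a higher share than it.

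None of the 6013 isoforms had a transcript model in the deposited annotation, which holds 36426 models, all of isoforms with rod reads. An Ensembl transcript identifier was carried by 1030 of them (17.1%, 16.2% to 18.1%) against 49.8% of isoforms with rod reads and 43.9% of all with the minimum. The difference was also present within each band of counts outside rods below 500 counts, though the comparison isoforms had rod counts on top of these. At 10 to 19 counts, 14.4% of isoforms without rod reads were annotated against 27.2% of those with rod reads, at 20 to 49 counts 17.3% against 31.7%, at 50 to 99 counts 26.3% against 39.8% and at 100 to below 500 counts 31.2% against 51.6%. All 6 with 500 or more counts were annotated, against 80.2%. Isoforms with exactly 1 rod count lay between, at 27.4%.

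**Figure D1:**
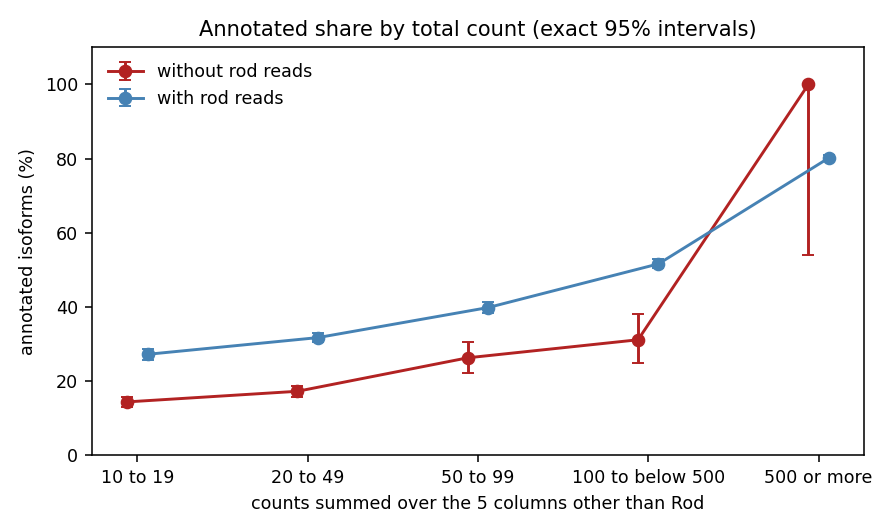
Share of isoforms with an Ensembl transcript identifier (y axis, percent) by the isoform's counts summed over the 5 columns other than Rod (x axis, 5 bands), without rod reads in red and with rod reads in blue; bars are exact 95% intervals. The red points lie below the blue under 500 counts, from 14.4% against 27.2% to 31.2% against 51.6%, and the last red point is 6 isoforms.

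Amacrine cells had the highest CPM for 3869 of the 6013 isoforms (64.3%), against 27.7% of isoforms with rod reads and 34.3% of all 33156. Bipolar cells were highest for 912 (15.2%; 20.2% of all), ganglion cells for 544 (9.05%; 12.9%), Müller glia for 497 (8.27%; 16.7%) and cones for 191 (3.18%; 15.9%). The amacrine column is also the deepest of these 5, with 51.2% of their counts, and it held 73.7% of the counts of isoforms without rod reads. With all 6 columns thinned to the depth of the ganglion cells, in 20 draws, the rule took 3113 isoforms on average, and ganglion cells led with 1036, ahead of amacrine cells with 729, Müller glia with 696, bipolar cells with 504 and cones with 148. The order of the classes therefore differed at equal depth. Annotated isoforms made up 41.0% of the thinned set.

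**Figure D2:**
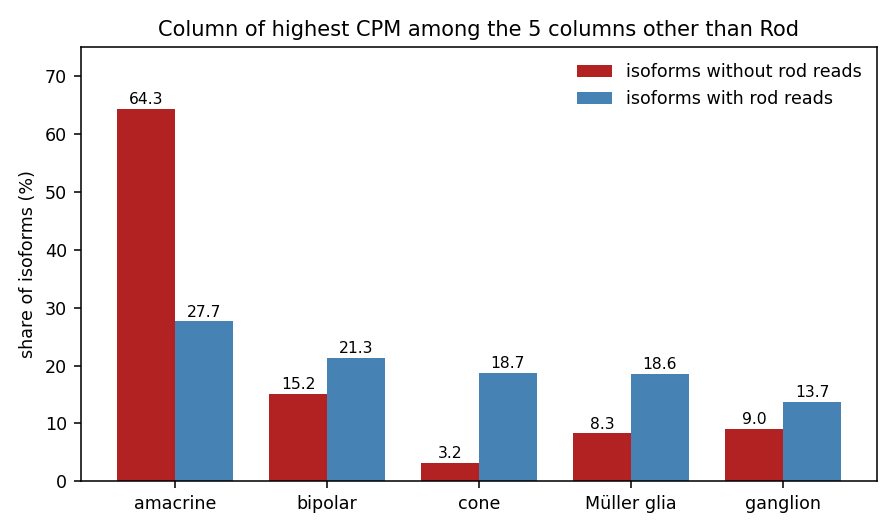
Share of isoforms (y axis, percent) by the column with the highest CPM among the 5 columns other than Rod (x axis), for the 6013 isoforms without rod reads in red and the 27143 with rod reads in blue. The amacrine bar is 64.3% against 27.7%, and the cone bar 3.2% against 18.7%.

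Reads were concentrated in few classes. Of the 6013 isoforms, 2946 (48.99%) had reads in 1 class, against 12.9% of all with the minimum and 4.89% of isoforms with rod reads, 1989 had reads in 2, 863 in 3, 196 in 4 and 19 in all 5. The amacrine column alone was the source of 2420 (40.2%), amacrine and bipolar cells together of 1005, amacrine and ganglion cells of 372 and bipolar cells alone of 361. Müller glia alone gave 71, ganglion cells alone 63 and cones alone 31. At least 80% of the summed CPM lay in 1 class for 69.5%, against 19.9% of isoforms with rod reads. The 2 sets had medians of 20 and 104 counts outside rods and were not compared here at equal counts. In the set that the rule took at equal depth, which is another set of isoforms, the share with reads in 1 class was 17.8%.

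The annotated share differed among the leading classes. It was 38.8% for the isoforms highest in Müller glia, 22.1% for ganglion cells, 16.8% for cones, 15.8% for bipolar cells and 14.0% for amacrine cells. The isoforms highest in ganglion cells had a median of 25 counts over the 5 classes and those highest in cones 15.

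For 4118 of the isoforms (68.5%, 67.3% to 69.7%), rods did read the gene, on another isoform. The share was 75.9% for isoforms of Ensembl genes and 7.94% (52 of 655) for those at loci that the table names by position alone. It was 53.9% for annotated isoforms and 81.1% for unannotated isoforms of Ensembl genes. In 1895 cases the gene had 0 rod counts, in 1223 it had 1 to 9, in 1816 it had 10 to 99, in 991 it had 100 to below 1000 and in 88 it had 1000 or more. The annotated share went down along these steps, from 25.1% through 20.0%, 12.4% and 8.38% to 2.27%. The median share of the isoform in the counts of its gene outside rods was 100%, 18.8%, 11.03%, 7.19% and 0.456%.

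**Figure D3:**
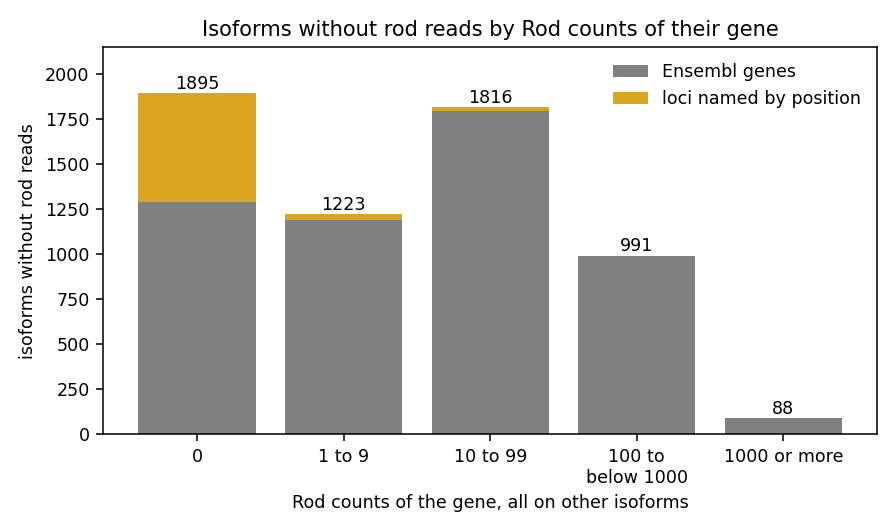
Number of isoforms without rod reads (y axis) by the Rod counts of their gene, all on other isoforms (x axis, 5 bands), split into Ensembl genes (grey) and loci named by position (yellow). The tallest bars are 1895 isoforms of genes with 0 rod counts and 1816 of genes with 10 to 99, and 88 isoforms belong to genes with 1000 or more.

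The 6013 isoforms came from 4083 genes, 3450 with an Ensembl identifier and 633 named by position, and 2970 of the genes had a single one. In 1511 genes, 929 of them Ensembl genes, rods had 0 counts on any isoform. Of the 929, 514 had their highest CPM in amacrine cells, 151 in Müller glia, 134 in bipolar cells, 105 in ganglion cells and 25 in cones, and 96 had 100 or more counts. Absence of reads in such a gene means at most 0.0541 CPM in the Rod column and not that rods lack the RNA.

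The genes with 0 rod counts and the most counts elsewhere were nearly all highest in amacrine cells. Rspo4 (chr2:151842927-151874668), a secreted R-spondin that strengthens Wnt signalling, had 1597 amacrine counts, 1 ganglion cell count and 0 in the other 4 columns. Its 33.1 CPM in amacrine cells (31.5 to 34.8) was 612 times the rod limit. Fam181a had 963 amacrine and 4 bipolar counts and none elsewhere, at 369 times the rod limit in amacrine cells. Fitm1, a protein of lipid droplet formation, had 797 amacrine, 42 bipolar, 0 cone, 9 Müller glia and 1 ganglion cell counts. Amacrine cells stood highest for all 3, with 16.5 CPM for Fitm1 against 1.45 in bipolar cells and 1.47 in Müller glia.

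Chrm2, the M2 muscarinic acetylcholine receptor, had 528 amacrine, 70 bipolar, 2 cone, 1 Müller glia and 1 ganglion cell counts, and its isoform had the most counts among the 19 with reads in all 5 classes. Crhr1 (chr11:104132855-104175523), the receptor of corticotropin-releasing hormone, was highest in ganglion cells. It had 118 counts there, which is 33.6 CPM (27.8 to 40.3), 313 counts or 6.49 CPM in amacrine cells, 4 in bipolar cells and 0 in cones and Müller glia. The ganglion cell level was 621 times the rod limit. Its ligand gene Crh was without rod reads as well, with 48 amacrine and 2 bipolar counts.

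Cpne5, a calcium-dependent membrane-binding protein, had 443 amacrine and 25 ganglion cell counts over 7 isoforms and 0 in the other 4 columns. Mal2, a membrane trafficking protein, had 492 amacrine, 5 bipolar, 1 cone, 0 Müller glia and 31 ganglion cell counts. Amacrine and ganglion cells had 9.18 and 7.12 CPM of Cpne5 and 10.2 and 8.83 of Mal2. The intervals of the ganglion cell values, 4.61 to 10.5 and 6.001 to 12.5, held the amacrine values, so the order of these 2 classes was not resolved. Tunar, a small transcript of neural tissue, had 590 amacrine, 9 Müller glia and 1 ganglion cell counts over 2 isoforms. Zap70, a kinase best known from T cells, had 386 amacrine, 2 Müller glia and 2 ganglion cell counts. Pnliprp2, a lipase, had 355 amacrine, 3 bipolar and 1 ganglion cell counts. Klk1b27 had 363 amacrine counts and none in any other column, and belongs to a family of near-identical kallikrein genes among which reads may have been divided.

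**Figure D4:**
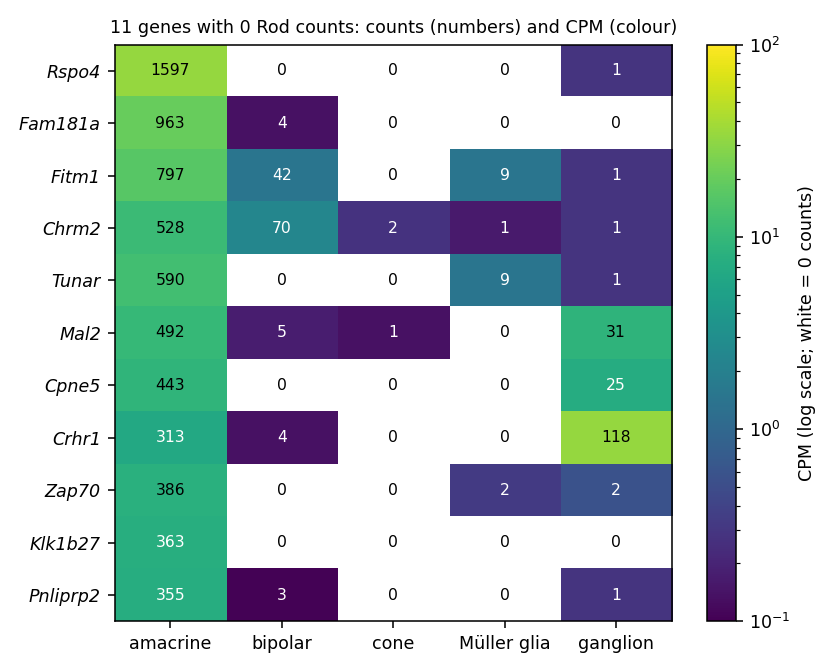
Counts (numbers) and CPM (colour, logarithmic scale, white for 0 counts) of 11 genes with 0 rod counts and the most counts elsewhere, by cell class. Amacrine cells have the highest CPM value in each plotted gene but Crhr1, which is highest in ganglion cells at 33.6 CPM; for Cpne5 and Mal2 it lies within the interval of the ganglion cell value.

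Genes with 0 or few rod counts were also found for single cell groups of known function. Tyrosine hydroxylase, encoded by Th, makes dopamine in a small group of amacrine cells, and it had 268 amacrine counts, 1 ganglion cell count and 0 elsewhere. In bipolar cells, Slc30a2, a zinc transporter, had 180 counts beside 1 in cones and 4 in Müller glia. Dyrk4, a kinase, had 162 bipolar, 4 amacrine, 14 cone and 11 Müller glia counts on its leading isoform, with 9 rod counts on other isoforms. In cones, Cnga3, a subunit of the cone phototransduction channel, had 80 counts on 1 isoform, beside 4 in bipolar cells and 1 in Müller glia, and 21 on a second. The cone level of the first was 10.9 CPM (8.68 to 13.6), 202 times the rod limit. Other cone genes had isoforms without rod reads that were not highest in cones. Cngb3 had one with 26 amacrine counts alone and one with 18 bipolar and 2 cone counts. Thrb had one with 14 amacrine counts alone. Further Cngb3 isoforms, with 8 and 12 cone counts, were highest in cones. Rods had 14 counts of Cngb3 and 219 of Thrb on other isoforms.

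In the Müller glia column, Gkn3 had 135 counts, 9 in bipolar cells and 1 in cones, and Lrat had 131, with 2 in bipolar cells and 1 in cones. Markers of vessels, astrocytes and microglia were also highest in that column, and their part in the Gkn3 counts was not tested. Lrat (chr3:82892579-82903973) makes retinyl esters and is a gene of the pigment epithelium, and 5 of the 6 isoforms that the list of pigment epithelium genes contributed were highest in Müller glia. These were the Lrat isoform, 3 of Rpe65 with 24, 11 and 10 counts, and 1 of Pmel with 17. The pigment epithelium markers at 8805 CPM in the Müller glia column stand beside this result, and their part in it was not tested. Usp51, a deubiquitinase, had 51 amacrine, 31 bipolar, 1 cone, 12 Müller glia and 1 ganglion cell counts, with 1.96 CPM in Müller glia, an interval (1.01 to 3.42) that holds the 1.06 of amacrine and the 1.07 of bipolar cells.

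Next came genes that rods read on other isoforms, where the gene was detected in rods and the isoform was not. A rule of size asked for genes with 100 or more rod counts and 100 or more counts in another class, and for an isoform without rod reads that held 50% or more of the gene in that class. Of 6320 genes open to it, with 827 isoforms without rod reads, 7 isoforms met it.

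Cacna2d4 (chr6:119236526-119352407), a calcium channel subunit of photoreceptor and bipolar cell synapses, gave the largest share of the 7. An unannotated isoform had 396 of the 400 amacrine counts of the gene (99%, 97.5% to 99.7%), 1 ganglion cell count and 0 in bipolar cells, cones, Müller glia and rods. The 735 rod counts of the gene were led by an unannotated isoform of 8 exons with 541, which had 675 of the 1083 bipolar counts, 75 of the 84 cone counts and 3 amacrine counts. The rod, cone and bipolar columns thus shared an isoform that amacrine cells had 3 counts of. The part of rod reads in its cone and bipolar counts was not tested.

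Poc1a, a centriole protein, had 106 of 170 amacrine counts on an isoform without rod reads (62.4%), while 113 of its 173 rod counts were on ENSMUST00000072206.13. Slc25a25, described above, had 62 of 100 amacrine counts on such an isoform (62.0%, 51.7% to 71.5%). Bicdl1, an adaptor of dynein-driven transport, had 90 of 153 amacrine counts (58.8%) and all 16 of its ganglion cell counts on an unannotated isoform, while 301 of its 571 rod counts were on another one. Arhgef26, an activator of small GTPases, had 94 of 178 amacrine counts (52.8%) on 1. In bipolar cells, Bdh2, a dehydrogenase, had 81 of 134 counts (60.4%) and Emp3, a membrane protein, had 218 of 399 (54.6%). The Emp3 isoform also had 16 cone and 16 Müller glia counts but 1 amacrine count, against 433 amacrine counts of the gene.

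A second reading set the rod counts of each gene beside the share its isoform held outside rods. That product is the number of rod counts the isoform would have had at the same share. It was 10 or more for 1178 isoforms (19.6%), 50 or more for 109 and 100 or more for 19, and its median was 3.40 among genes with rod reads. For most of these isoforms the rod depth therefore gave few counts to miss. The genes of the next paragraphs were chosen after their values were seen, as those with the largest product.

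Fscn2, an actin-bundling protein of photoreceptors, had 28571 rod counts, all on ENSMUST00000026445.2. An unannotated isoform had 61 amacrine, 14 ganglion cell and 0 bipolar, cone, Müller glia and rod counts, and its 14 were all the Fscn2 counts of the ganglion cells. At the shares outside rods, 1850 rod counts would have been on it. The amacrine column had reads of both, with 218 counts on the annotated isoform. That column also held the 5 rod markers at 85.8 CPM, and the part of rod reads in the 218 was not tested.

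Prom1 and Impg2 belong to the outer segments of photoreceptors and the matrix around them. Of 66 amacrine counts of Prom1, 34 (51.5%) lay on an isoform with 0 counts in every other class, while rods had 4097 counts of the gene, led by an isoform with 1695. Impg2 had an isoform with 73 of its 98 bipolar counts (74.5%, 64.7% to 82.8%), 3 cone counts, 8 Müller glia counts and none in amacrine and ganglion cells. That isoform was absent from the 1565 rod counts and held 3 of the 234 cone counts of the gene.

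Dlg4 encodes PSD-95, a scaffold of synapses. The isoform ENSMUST00000018700.13-1 had 21 amacrine and 1 bipolar counts and none in cones. The cone column had 35 counts of the gene. Of these, 23 lay on ENSMUST00000108589.9, the isoform that led in rods with 607 of 879. The part of rod reads in the 35 was not tested. Spata1 had 31 of its 32 amacrine counts on an isoform missing from its 840 rod counts. Smaller parts of a gene were at issue in Spint2, with 94 amacrine, 37 bipolar and 10 cone counts on an isoform that rods lacked among 18471 counts, in Lmbr1l, with 80 amacrine counts beside 2377 rod counts of the gene, and in Atf6b, with 133 amacrine counts beside 1905. In these 3 the isoform held 1.72%, 8.39% and 7.89% of the gene outside rods.

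Some genes contributed many isoforms. Elavl2, an RNA-binding protein of neurons, had 12 of its 15 isoforms without rod reads, with 11 to 53 counts each, 8 of them with ganglion cell reads and all 12 with amacrine reads; rods had 2 counts of the gene. Anks1b, a postsynaptic protein, had 11 of 14 and 8 rod counts. Spats1 (10 of 12), Epb41l4a (10 of 12) and Il3ra (10 of 13) were next, with 1 to 8 rod counts of the gene. Nol4 had 9 of 13 and the sodium channel gene Scn3a 9 of 10, the latter with 0 rod counts on any isoform. In these 7 genes the isoforms without rod reads held more than 50% of the counts outside rods, from 60.5% in Anks1b to 97.1% in Scn3a, and rods had 0 to 8 counts of each gene.

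Lists of related genes were then counted against the 18.1% of all isoforms. The lists were made with results of these data known, and a list that is expressed at low levels has more isoforms at risk of 0 rod counts, so the share among isoforms with 10 to 49 counts, 36.2% over all genes, is given as well. Of 30 lists, 21 lay above the share of all isoforms in each of the 2 counts, and 20 of them in both.

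Ion channels stood high. The lists of channels, receptors, adhesion and housekeeping genes were mostly drawn by the start of the gene symbol, and some genes in them are of another kind. Most sodium channels of the list carry the action potential, but it also takes the epithelial channel gene Scnn1a and the splicing factor gene Scnm1. Of its 31 isoforms, 23 (74.2%) had no rod read, and 19 of 21 (90.5%) at 10 to 49 counts. They belonged to 8 genes, 6 of which had 0 rod counts on every isoform, among them Scn1a, Scn3a and the auxiliary subunits Scn2b and Scn3b. Scn2b had 93 amacrine, 22 bipolar and 1 cone counts, and Scn3b had 4 such isoforms with 27 to 56 amacrine counts and no reads elsewhere. Voltage-gated calcium channel subunits had 34 of 57 (59.6%; 73.8% at 10 to 49 counts), with Cacnb3 at 69 amacrine and 22 ganglion cell counts after Cacna2d4. Potassium channels had 48 of 120 (40.0%; 70.5%), and 15 of the 61 listed genes, Kcnc1 and Kcnc2 among them, had 0 rod counts. That list takes auxiliary subunits and 3 opposite-strand genes too, of which Kcnab3os is among the 15.

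Adhesion and guidance genes were also above all isoforms. Cadherins had 24 of 46 (52.2%; 75% at 10 to 49 counts), semaphorins, plexins and ephrins with their receptors 45 of 86 (52.3%; 72.6%), genes of the collagen and laminin list, which also takes Colgalt2 and Colec11, 30 of 55 (54.5%; 66.7%) and the neurexins, neuroligins and other synaptic adhesion genes 58 of 140 (41.4%; 54.0%). Cdh13, a cadherin anchored by a lipid, had 414 amacrine counts and 1 Müller glia count on an unannotated isoform that held 85.9% of the gene outside rods; rods had 9 counts of the gene. An isoform of Cdh6 had 102 amacrine counts and none in other classes. Nrxn3, a presynaptic adhesion protein with many known splice forms, had an isoform with 240 amacrine, 4 cone and 10 ganglion cell counts, 31.9% of its amacrine counts, while rods had 49 counts of the gene on other isoforms. Tenm4 had 79 amacrine, 37 bipolar and 2 cone counts on 1 isoform.

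Transmitter receptors followed. Glutamate receptors had 26 of 57 (45.6%; 52.5% at 10 to 49 counts) and GABA receptors 19 of 53 (35.8%; 58.3%). Glycine receptors had 3 of 9 (33.3%), but 1 of 4 at 10 to 49 counts, below the 36.2% of all isoforms. Grm8, a presynaptic glutamate receptor, had 2 isoforms with 363 and 346 amacrine counts, 37.6% and 37.3% of the gene outside rods; the annotated one also had 16 ganglion cell counts. Gria3, an AMPA receptor subunit, had 120 amacrine, 14 bipolar, 1 cone and 1 Müller glia counts on an isoform without rod reads, and Gabra3 had 110 amacrine counts and none elsewhere. Grm8 had 21 rod counts on other isoforms, Gria3 1 and Gabra3 4.

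Regulators of splicing and transcription held some of the most abundant unannotated isoforms. Neuronal splicing regulators had 38 of 133 without rod reads (28.6%; 44.8% at 10 to 49 counts). Rbfox2 had 3 with 100 or more counts, the first with 444 amacrine and 54 ganglion cell counts, the second with 243 and 1 and the third with 122 and 22, and no reads in bipolar cells, cones or Müller glia. In CPM the first and the third were higher in ganglion cells, at 15.4 against 9.20 and 6.27 against 2.53, and the second in amacrine cells, at 5.04 against 0.285. Rods had 79 Rbfox2 counts on other isoforms. Rbfox1 had 1 with 185 amacrine, 5 bipolar and 21 ganglion cell counts, and Celf4 had 2, with 164 and 98 amacrine and 17 and 9 bipolar counts.

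Amacrine transcription factors had 16 of 42 (38.1%; 70% at 10 to 49 counts). Pax6 (chr2:105668900-105697364), which is needed to specify amacrine cells, had an unannotated isoform with 369 amacrine counts and 0 in all other classes, the highest count of any isoform with reads in 1 class. It was 2.58% of the amacrine counts of the gene, and rods had 227 counts on other isoforms, which would hold 5.74 at its share in the other 5 classes together. Maf had one with 106 amacrine counts, 33.8% of its gene there. Amacrine transmitter and neuropeptide genes were near all isoforms, with 5 of 27 (18.5%; 3 of 8 at 10 to 49 counts).

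Housekeeping lists were low. Respiratory complex I genes had 3 of 90 (3.33%) and cytosolic ribosomal protein genes, a list drawn by symbol that also takes ribosomal S6 kinases, 10 of 167 (5.99%). Their isoforms had medians of 4441 and 7669 counts outside rods, and among those with 10 to 49 counts the shares were 2 of 7 (28.6%) and 8 of 25 (32.0%), nearer to 36.2%. Zinc finger genes were low in both, with 82 of 806 (10.2%) and 23.1%. Of the class marker lists, ganglion cell genes had 6 of 29 (20.7%; 5 of 11 or 45.5% at 10 to 49 counts), above all isoforms in both. Bipolar cell genes had 7 of 59 (11.9%; 28.0%) and cone genes 7 of 62 (11.3%; 35.3%, near the 36.2%). Müller glia genes had 3 of 42 (7.14%; 3 of 11) and microglia genes 1 of 21 (4.76%; 1 of 4). The 3 isoforms of the Müller glia list were all of Slc1a3, and 2 of them had amacrine reads alone.

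**Figure D5:**
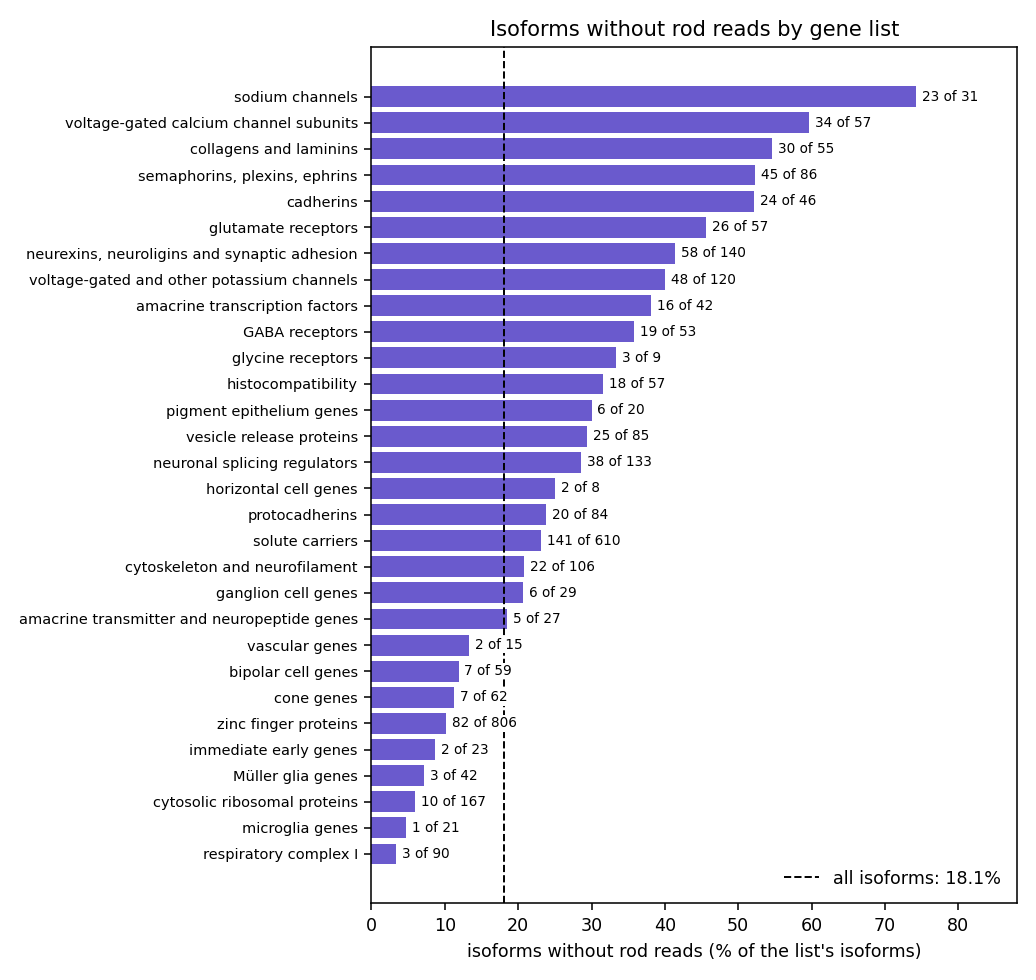
Share of the isoforms of each of 30 gene lists that had no rod read (bars, percent, with counts beside them), among isoforms with 10 or more counts over the other 5 columns; the broken line marks the 18.1% of all isoforms. Sodium channels are highest at 74.2% and respiratory complex I lowest at 3.33%.

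The remaining lists lay between these. Histocompatibility genes had 18 of 57 (31.6%), with 172 amacrine and 7 bipolar counts for an H2-DMa isoform and 132 amacrine counts for one of H2-Q10, and members of this family are similar enough for reads to be divided among them. Solute carriers had 141 of 610 (23.1%), and Slc51a had an isoform with 138 amacrine counts and none elsewhere, Slc27a3 one with 101 and Slc25a1 one with 99. Cytoskeletal genes had 22 of 106 (20.8%), with Tubb2a at 136 bipolar, 4 amacrine, 7 cone and 11 Müller glia counts on an isoform that was 0.670% of the bipolar counts of the gene. Rods had 4062 Tubb2a counts, all on other isoforms. Horizontal cell genes had 2 of 8, among them Onecut2 with 35 amacrine, 52 bipolar, 16 cone and 2 Müller glia counts and 0 rod counts on any isoform.

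Ganglion cells and Müller glia led for further isoforms with 100 or more counts. Ptprd, a receptor phosphatase of synapses, had 299 amacrine and 58 ganglion cell counts on an unannotated isoform, with 16.5 CPM in ganglion cells against 6.20 in amacrine cells. Dmtn, an actin-bundling protein, had 187 and 56 on an annotated one, and Rnd2, a small GTPase, 166 and 35. Il34, a ligand of the receptor that sustains microglia, had 202 amacrine and 28 Müller glia counts, at 4.19 and 4.57 CPM, and the amacrine value lay within the interval of the Müller glia value (3.03 to 6.60). Prdm16, a transcriptional regulator, had 107 amacrine, 43 bipolar and 25 Müller glia counts. Among those with reads in all 5 classes, Fam92b had 310 counts, 146 of them bipolar, Tmem169 had 255, Tcf19 had 240 and Lemd1 had 189.

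The structure of the annotated isoforms could be read from GENCODE M21, where 1023 of the 1030 identifiers were found. They were protein coding in 77.4% (74.7% to 79.9%) against 87.2% of 13400 annotated isoforms with rod reads, retained introns in 7.04% against 2.82% and processed transcripts in 7.92% against 4.37%. At 10 to 49 counts the protein coding shares were 76.0% and 82.3%. The median was 6 exons and 2183 bases, against 7 exons and 2180 bases. At 10 to 49 counts it was 6 exons and 2183 bases against 8 exons and 2833 bases.

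For 550 of the 1023, the isoform was compared with the isoform of the same gene that rods read most. The first exon differed in 235 (42.7%, 38.6% to 47.0%), the last exon in 32.0%, an exon was skipped in one of the 2 in 32.4%, and an alternative 5′ splice site was found in 8.36%, with 8.55% for an alternative 3′ splice site, and 5.82% retained an intron. The same comparison over 4633 annotated isoforms with rod reads that did not lead their gene in rods gave 23.4% for the first exon, 26.1% for the last, 32.4% for skipped exons, 13.8% for 5′ splice sites, 13.5% for 3′ splice sites and 6.50% for retained introns. The intervals of both kinds of splice site lay below those of isoforms with rod reads, but at 10 to 49 counts they overlapped, with 8.89% against 10.6% for 5′ sites and 8.44% against 11.4% for 3′ sites. At 10 to 49 counts the first exon differed in 42.0% against 26.1% and the last in 31.8% against 35.3%. The first exon was thus the event whose intervals did not overlap in this band of counts outside rods. The first exon lay outside every rod-read exon of the gene in 147 of the 550 (26.7%).

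At least 1 intron that no rod-read model of the gene contained was found in 446 of the 550 (81.1%), and exactly 1 in 287. Another 84 combined introns that were all in rod-read models in another way. The remaining 20 (3.64%) had the introns of a rod-read isoform and differed from it at their ends alone.

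Isoforms at loci that the table names by position were 655 of the 6013 (10.9%), against 7.22% of isoforms with rod reads and 7.89% of all. A modelled isoform of this kind began 1 to 1000 bases after the named position, so the 1000 bases after it were compared with M21. This window touched an exon in 87.5% (84.7% to 89.9%), lay within an intron in 10.5% and outside genes in 1.98%, against 90.4%, 8.57% and 1.02% for those with rod reads. The named loci thus lay mostly over genes of the annotation. The window chr1:175074001-175075000, within an intron of Rgs7, had 189 bipolar, 13 amacrine and 6 cone counts. The window chr10:28588001-28589000, at an exon of Ptprk, had 174 amacrine, 21 ganglion cell and 1 cone counts. Both were without rod reads at any isoform of the locus. At chr3:109830001-109831000, at an exon of Ntng1, there were 156 bipolar, 18 amacrine, 1 cone and 1 Müller glia counts, and at chr14:12470001-12471000, at an exon of Cadps, there were 125 bipolar counts and none elsewhere. At chr5:53153001-53154000, at an exon of Sel1l3, there were 104 amacrine, 53 bipolar, 19 cone and 3 Müller glia counts.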

How the data were processed

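Per the labels' protocols, papain-dissociated retinas gave single-cell cDNA with 10x Genomics chemistry, sequenced on a nanopore instrument. The authors deposited 1 table of whole-number counts per isoform and cell class and 1 annotation whose entries name FLAIR, a builder of isoforms from long reads, per the file contents. The build is mm10 per the submitters' processing notes. Cell calling, cell typing, doublet removal, the counting rule and isoform filters are not given in the sources used here.

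Counts were used as deposited, with 0 columns unused, and scaled to 1000000 per column (CPM). Members were taken as stated in the report. Members, gene lists and rules were chosen with earlier results of these data known. Named genes were, by class, the 3 annotated and 2 unannotated members with the most counts, members that lead their gene, the 8 genes with the most members, the 12 genes with the most counts and a Rod total of 0, the 5 members with the most counts in all 5 classes, and list members with 100 or more counts. Structure and coding sequence came from GENCODE M21 and start windows from RefSeq (GRCm38.p6). Shares have exact Clopper-Pearson 95% intervals, counts exact Poisson intervals, and a count of 0 allows up to 3 counts. These cover counting error only. Results for some genes these rules name are not reported here.

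Python 3.11.15, pandas 2.3.3 and scipy 1.17.1 were used, and the trimmed mean of M-values and the median of ratios were computed in Python for other scalings. Alternatives were other minimums, up to 2 Rod counts, leaving out a column, equal depth, other scalings and other rules for leading isoforms and first exons.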

Additional observations from a re-analysis of the deposited data

How the results depend on the processing

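Of 85 recomputed values, 37 stayed close and 48 moved. A number or median counted as close within 1.5 times the main value, and a share within the exact 95% interval of its main value, so small shifts of a share over many isoforms count as moved. No paired analysis was possible because the class columns carry no library or replicate, and leaving out a library was not possible for the same reason. With a minimum of 20 counts the rule took 3187 isoforms, 19.5% annotated, 39.6% with reads in 1 class and 875 genes without rod reads; amacrine cells led for 2202, ganglion cells 355, bipolar cells 373, Müller glia 186 and cones 71. With a minimum of 50 it took 650 with a median of 78, 28.5% annotated, 18.6% in 1 class, 64.2% with the gene read in rods and 221 genes; the classes led for 401, 111, 103, 27 and 8 in the same order. Allowing up to 2 Rod counts, 20.9% were annotated, 39.6% were in 1 class, 2453 genes were taken, and ganglion cells led for 834, Müller glia 1033, bipolar cells 1656 and cones 376.

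Without the amacrine column 1937 isoforms remained in number, 22.6% annotated, 45.0% in 1 class and 65.2% with the gene read in rods. Without the ganglion cell column 54.4% were in 1 class. At equal depth the rule was applied anew, so isoforms with rod reads at full depth could enter. With the minimum kept at 10 counts and so at a higher CPM, 3113 were taken. Of these, 41.0% were annotated, 17.8% in 1 class and 51.5% with the gene read in rods. Amacrine cells led for 729, bipolar cells 504 and ganglion cells 1036. By raw counts ganglion cells led for 300, Müller glia 228 and cones 85. The share whose gene rods read was 48.1% when 10 or more Rod counts were asked for and 75.9% without loci. The isoforms that lead their gene numbered 244 at a minimum of 20 counts of the gene, 3 at 500 or more Rod counts, 42 at a share of 25% and 1 at 75%. The first-exon share stayed between 41.8% and 46.3%, including 1 alternative chosen after seeing the data. Depth limits every absence: at the median of 20 counts, rods of equal level would have had 11.8 counts.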
